A study of Rattus norvegicus with 192 samples.

Results

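The 7 genes described here encode neurotrophins, GDNF (glial cell line-derived neurotrophic factor) and their receptors: Bdnf, Ntf3, Ntrk2, Ntrk3, Ngfr, Gdnf and Gfra1. They were chosen by name, and all 7 were found among the 38354 genes of the table. PolyA RNA of the nucleus accumbens core, a part of the ventral striatum, was sequenced in outbred heterogeneous stock rats. The table holds 159 libraries, each with its own rat identifier and taken as 1 rat, and 33 others that the labels mark as removed were not analysed here. No treatment, genotype, sex, age or batch is in the labels, so the groups are the formats of the rat identifier: 67 numeric labels, 77 starting with E21, 12 corrected by the submitters to the E21 format (corrected E21), 2 starting with AA1 and 1 corrected to another format. The descriptions of the corrected libraries, and of no other group, give an original label marked unknown before a genotype mismatch fix. Nothing else distinguishes these groups in the labels, and a format may coincide with a batch that no label names.

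Neurotrophins are secreted survival and plasticity factors that act through Trk receptor kinases and through a shared receptor of the tumour necrosis factor receptor family. Ntrk2 encodes TrkB, the receptor of BDNF, and Ntrk3 encodes TrkC, the receptor of neurotrophin-3 (Ntf3), while Ngfr encodes the shared receptor. GDNF binds the membrane-anchored co-receptor encoded by Gfra1, which then engages the Ret kinase. In the striatum, BDNF protein is known to reach medium spiny neurons largely from cortical and midbrain neurons that project there, whereas GDNF is made locally, in good part by interneurons. Slc17a7, a vesicular glutamate transporter, marks cortical projection neurons, Drd1 marks medium spiny neurons of the direct pathway, and Th marks dopamine neurons.

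By RefSeq (assembly GRCr8), whose gene ends match the start positions of the deposited table, Bdnf lies at chr3:116619633-116670212 on the plus strand and Gdnf at chr2:58621327-58647242 on the plus strand. The other members lie on the minus strand, Ntf3 at chr4:160601161-160670623, Ntrk2 at chr17:5560558-5875899, Ntrk3 at chr1:141526192-141913575, Ngfr at chr10:81012077-81030305 and Gfra1 at chr1:267325297-267557037. RefSeq lists 11 transcripts for Bdnf, 14 for Ntrk2, 8 for Ntrk3, 8 for Gfra1, 5 for Ntf3, 4 for Gdnf and 1 for Ngfr, and the table sums each gene to 1 value. No annotated gene overlaps Bdnf, Ntf3 or Ngfr, and the genes that overlap the other members had a mean of at most 0.169 CPM (counts per 1000000 of a library's total).

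Bdnf is transcribed from several promoters, and activity-dependent transcription of Bdnf is known to involve the factor CREB. RefSeq start windows (GRCr8) were given for 4 of the 7 members, with 6 windows for Bdnf, 3 for Ntf3, 1 for Gdnf and 1 for Gfra1. The 250 bases before 2 Bdnf starts and before the Gdnf start are shown, because the levels of these 2 ligands moved in opposite directions across the libraries described next. They are written 5′ to 3′ on the gene's strand, with the core of the CREB-binding element in capitals (TGACG, or CGTCA on the other strand). The windows are chr3:116619383-116619632 (Bdnf, the start position of the table), chr3:116637608-116637857 (Bdnf, a later start) and chr2:58621077-58621326 (Gdnf).
Bdnf, first start: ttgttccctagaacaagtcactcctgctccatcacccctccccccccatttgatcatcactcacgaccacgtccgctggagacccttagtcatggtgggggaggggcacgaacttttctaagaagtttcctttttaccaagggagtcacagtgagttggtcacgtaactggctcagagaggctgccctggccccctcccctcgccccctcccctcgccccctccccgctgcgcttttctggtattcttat
Bdnf, later start: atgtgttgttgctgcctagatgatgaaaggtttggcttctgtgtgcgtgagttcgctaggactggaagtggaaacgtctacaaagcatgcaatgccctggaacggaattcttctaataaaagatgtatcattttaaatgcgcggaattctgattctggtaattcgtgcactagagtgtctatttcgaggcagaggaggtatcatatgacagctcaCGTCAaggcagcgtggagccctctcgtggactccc
Gdnf: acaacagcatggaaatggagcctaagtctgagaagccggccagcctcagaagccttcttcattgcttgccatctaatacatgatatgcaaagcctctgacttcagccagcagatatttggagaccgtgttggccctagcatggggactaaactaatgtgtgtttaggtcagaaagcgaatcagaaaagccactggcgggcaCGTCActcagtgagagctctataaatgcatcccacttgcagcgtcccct
The core occurred 1 time in the later Bdnf window, 1 time in the Gdnf window and in no other window of the members. It was found in 18.2% of all 33469 windows of this length, which is a similar share. The full palindrome TGACGTCA was found in none of the members' windows and in 1.59% of all windows. The table does not separate transcripts by promoter, so these letters describe the windows only.

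The libraries fell into 3 profiles by the thresholds of the rule. Drd1 was at least 100 CPM in 147 libraries (56 numeric, 76 E21, 12 corrected E21, 2 AA1 and 1 of another corrected format), with the lowest of them at 154 CPM and the highest library below the threshold at 20.0 CPM. Th was at least 100 CPM in 11 libraries (10 numeric and 1 E21), with the lowest at 630 CPM and the highest library below the threshold at 10.7 CPM. A further numeric library reached neither threshold and had the highest Slc17a7 level of all, 1993 CPM. The 10 medium spiny neuron markers summed to 3195 to 8069 CPM in the Drd1 libraries, against 354 to 572 CPM in the Th libraries and 435 CPM in the library with neither profile. The 7 midbrain dopamine neuron markers summed to 1790 to 5891 CPM in the Th libraries and to 21.0 to 51.6 CPM in the Drd1 libraries. Drd1 and Th are in these lists, so the sums partly restate the thresholds. Of the other markers, Ppp1r1b was 998 to 2989 CPM in the Drd1 libraries and 63.5 to 138 CPM in the Th libraries. Slc6a3 was 0 to 2.98 and 236 to 1088 CPM in the same order, whereas Drd2 overlapped (91.6 to 249 and 56.3 to 162 CPM). By the marker sums the tissue label is not matched in 12 of the 159 libraries. These 12 are kept apart from the Drd1 libraries in the results given here, with 2 exceptions. The filter for tested genes used the mean CPM over all 159 libraries, and an alternative fit in the closing section took in all libraries of the main formats. Library totals ranged from 14.6 to 61.2 M estimated counts (M for 1000000).

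Bdnf varied most among the members across the Drd1 libraries and tracked Slc17a7 closely. Its level was 0 to 14.9 CPM, with a median of 2.29 CPM (n = 147). No count was found in 3 libraries, where 3 counts would have given 0.111 to 0.122 CPM. The SD of its log2 values was 1.02, larger than that of 99.5% of the tested genes. In the 18 Drd1 libraries with Slc17a7 under 20 CPM, Bdnf lay between 0 and 0.622 CPM, with a median of 0.167 CPM. In the 35 Drd1 libraries with Slc17a7 of at least 400 CPM, it lay between 3.30 and 14.9 CPM, with a median of 6.55 CPM. These ranges did not overlap, but the cut-offs leave out the libraries with Slc17a7 between 20 and 400 CPM. The share of all genes that separate in this way was not computed. These are bulk samples, in which fewer cells of a type and less RNA per cell cannot be told apart.

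The 2 ligands beside Bdnf were low in the Drd1 libraries and behaved differently from each other. Ntf3, neurotrophin-3, was at 0 to 1.78 CPM with a median of 0.178 CPM, which is a median of 4 estimated counts. It had no count in 13 libraries, where 3 counts would have given 0.111 to 0.180 CPM. Gdnf was detected in every Drd1 library, at 1.12 to 5.41 CPM with a median of 3.10 CPM. Its log2 SD was 0.34, against a median of 0.24 over the tested genes.

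Among the receptors, Ntrk2 was the steadiest gene. It lay between 404 and 778 CPM in the Drd1 libraries, with a median of 571 CPM and a log2 SD of 0.17, which was larger than that of 22.0% of the tested genes. Ntrk3 lay between 86.6 and 189 CPM, with a median of 129 CPM and a log2 SD of 0.27. Gfra1 lay between 10.0 and 39.2 CPM, with a median of 18.5 CPM and a log2 SD of 0.41. Ngfr was the most variable receptor, at 0.329 to 18.3 CPM with a median of 6.46 CPM, and its log2 SD of 0.73 exceeded that of 98.5% of the tested genes.

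**Figure D1:**
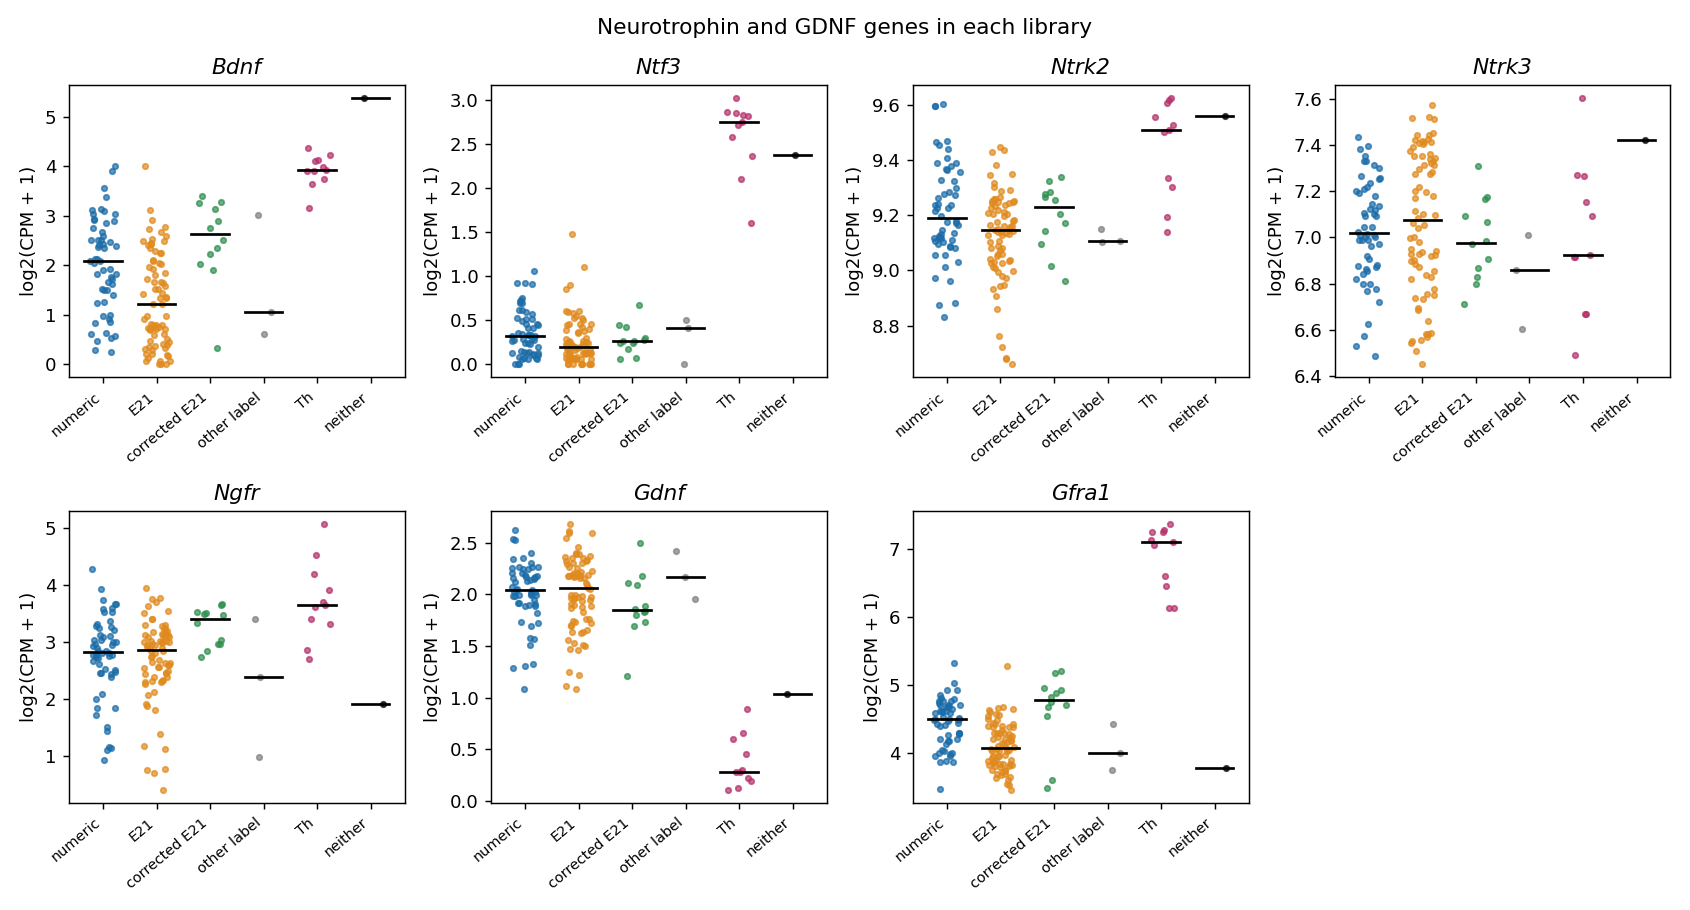
Level of each member in every library, as log2(CPM + 1) on the vertical axis, with the Drd1 libraries split by label format ("other label" holds the 2 AA1 libraries and the 1 of another corrected format) beside the 11 Th libraries and the 1 library with neither profile. Points are libraries, black lines are medians, points are spread sideways only to separate them, and vertical axes differ and do not start at 0. Ntf3 and Gfra1 of the Th libraries lie above every Drd1 library and Gdnf lies below.

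In the libraries with Th of at least 100 CPM the members had another pattern. Gfra1 was 69.2 to 164 CPM there, with a median of 136 CPM, which was 7.37 times the median of the Drd1 libraries. Ntf3 was 2.03 to 7.08 CPM, with a median of 5.69 CPM. Gdnf was 0.0780 to 0.852 CPM, with a median of 0.218 CPM, and the median of the Drd1 libraries was 14.2 times as high. For these 3 of the 7 members the ranges of the profiles did not overlap, with Gfra1 and Ntf3 higher and Gdnf lower in the Th libraries. Over all 15427 tested genes the ranges did not overlap for 12.6% (6.0% higher and 6.57% lower in the Th libraries), and with no filter on low values, which Ntf3 needs, 3.02% were higher without overlap. The profiles were set from measured values of the same libraries, so these levels are a description and no test was made between them.

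The remaining members overlapped between the profiles. Bdnf was 7.95 to 19.5 CPM in the Th libraries with a median of 14.1 CPM, and 4 of the 11 lay above every Drd1 library. Ngfr was 5.48 to 32.5 CPM with a median of 11.5 CPM, and 2 of the 11 lay above every Drd1 library. Ntrk2 was 564 to 789 CPM with a median of 729 CPM, and 82 of the 147 Drd1 libraries lay at or above the lowest Th library. Ntrk3, at 88.9 to 193 CPM with a median of 120 CPM, spanned nearly the same range in both profiles.

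High Bdnf of the Th libraries went with little Slc17a7, unlike that of the Drd1 libraries. Slc17a7 was 0.830 to 92.9 CPM there, with a median of 5.78 CPM. Per 100 CPM of Slc17a7, Bdnf was 12.3 to 1769 CPM in the Th libraries, with a median of 245 CPM. The same ratio was 0.519 to 3.28 CPM in the 91 Drd1 libraries with Slc17a7 of at least 100 CPM, with a median of 1.18 CPM. Among these 91, the median was 1.27 CPM in 43 numeric, 1.12 CPM in 36 E21 and 1.13 CPM in 11 corrected E21 libraries. No Th library reached 100 CPM of Slc17a7, so the ratios are of unlike sets, and those of the Th libraries divide by low values. In the 18 Drd1 libraries with Slc17a7 under 20 CPM, Bdnf itself was at most 0.622 CPM. The library with neither profile had 40.4 CPM of Bdnf, the highest of all 159, at a ratio of 2.03 CPM, which is inside the range of the 91 Drd1 libraries. Its other members were Ntf3 at 4.17 CPM, Gdnf at 1.05 CPM, Ntrk2 at 755 CPM, Ntrk3 at 171 CPM, Ngfr at 2.78 CPM and Gfra1 at 12.7 CPM.

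Partners of the members differed between the profiles as well. Ret, the kinase that signals for GDNF and its co-receptor, was 0.896 to 6.60 CPM in the Drd1 libraries and 291 to 626 CPM in the Th libraries. Gfra2, the co-receptor for neurturin, was 6.14 to 28.5 CPM in the Drd1 libraries and had a median of 119 CPM in the Th libraries, without overlap. Nrtn, which encodes neurturin itself, had medians of 1.51 and 6.41 CPM, again without overlap. Of the 51 tested genes in 4 lists of other pathway members, 8 were higher and 3 were lower in the Th libraries without overlap, beside 6.0% and 6.57% of all tested genes. Other markers also moved with the profile: the 6 meningeal fibroblast genes found summed to 63.7 to 1643 CPM in the Th libraries against 20.7 to 166 CPM, and the 8 immediate early genes to 48.6 to 88.1 CPM against 255 to 891 CPM. Their part in the members' levels was not tested.

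Within the Drd1 libraries, the members were compared with the Slc17a7 level across rats. Bdnf and Gfra1 rose with Slc17a7, Ntrk2 rose slightly, and Ntrk3 and Gdnf fell. For each log2 unit of Slc17a7, Bdnf changed by 0.47 log2 units (SE 0.020; limma adjusted p = 5.5e-48, n = 144 libraries of the 3 main formats). Gfra1 changed by 0.13 (SE 0.013; limma adjusted p = 1.44e-15) and Ntrk2 by 0.033 (SE 0.0075; limma adjusted p = 0.000116). Ntrk3 changed by -0.087 (SE 0.010; limma adjusted p = 1.22e-12) and Gdnf by -0.074 (SE 0.015; limma adjusted p = 8.5e-06). The slope of Ngfr, 0.058 (SE 0.033; limma adjusted p = 0.132), did not pass. Ntf3 was under the filter of a mean of 1 CPM, and in the fit with no filter its slope was 0.055 (SE 0.011; limma adjusted p = 3.82e-05), where 25.4% of genes were called and 10.4% were higher.

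Of the 6 members tested, 3 were thus called higher and 2 lower, where 52.4% of all tested genes were called (21.4% higher and 31.0% lower). A call alone was therefore common in these libraries, and the members differ from each other mainly in size and direction. The slope of Bdnf depends on the pseudocount, as its level is low: it was 0.79 with a pseudocount of 0.1 CPM in place of 1 CPM. Drd1 itself fell with Slc17a7 (slope -0.069). A fold on the log2(CPM + 1) scale understates the change of low genes. p-values measure the spread between these libraries only.

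**Figure D2:**
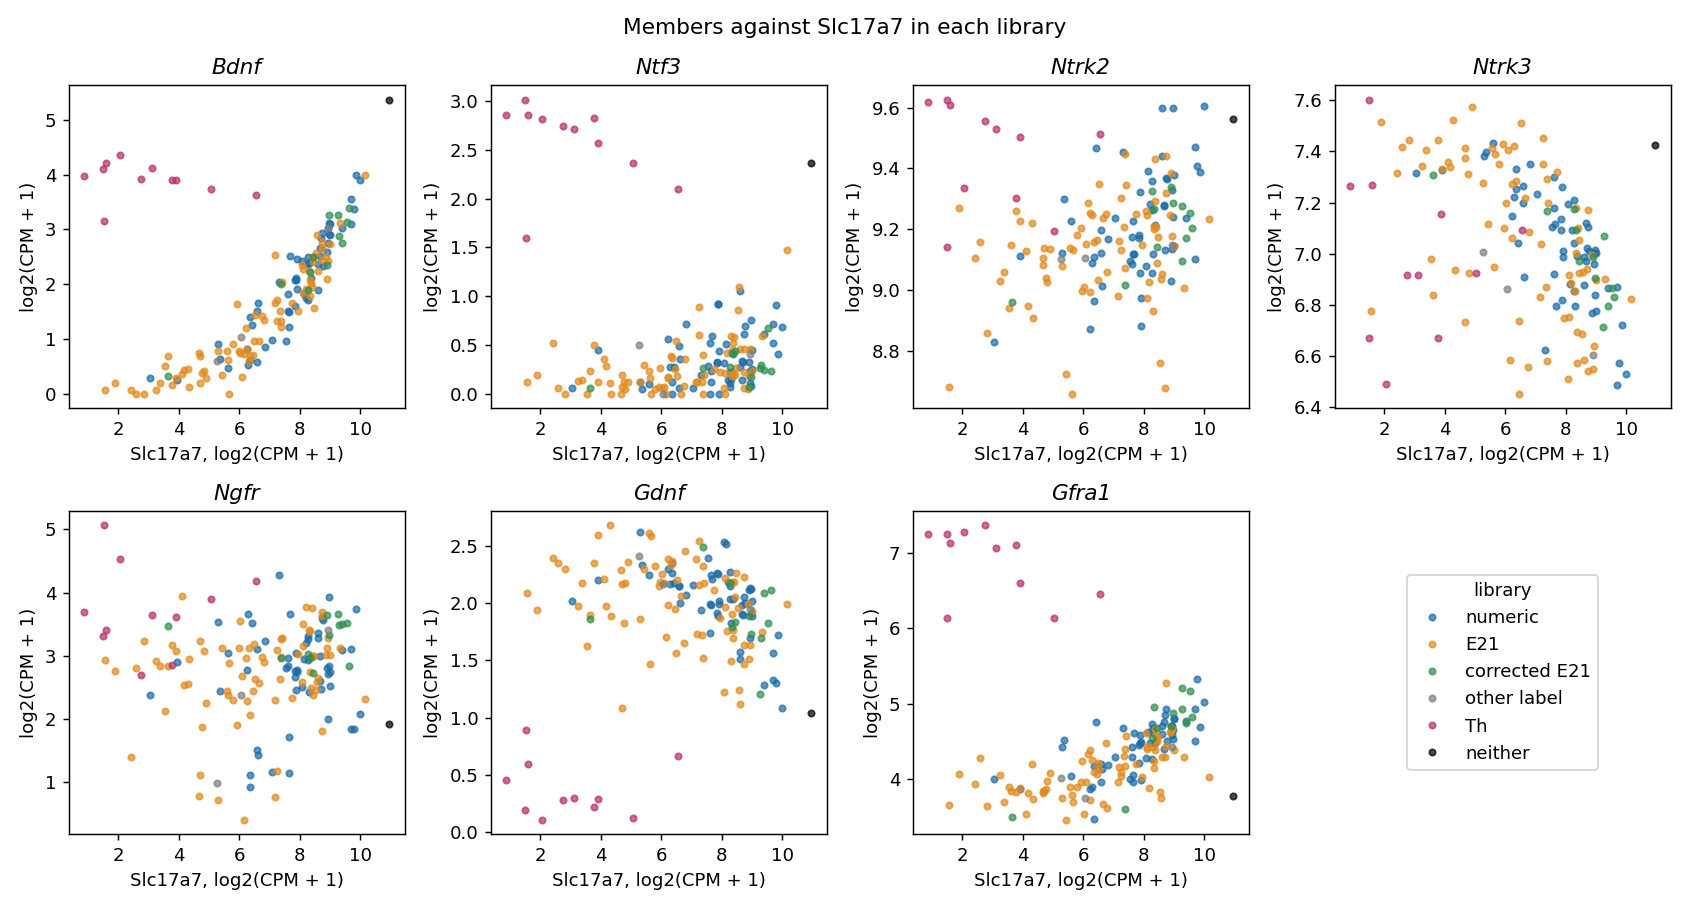
Each member (vertical axis) against Slc17a7 (horizontal axis), both as log2(CPM + 1), with 1 point per library coloured by label format or profile and axes that do not start at 0. The Bdnf points of the 147 Drd1 libraries form a narrow rising band (Pearson r 0.91), the Th libraries lie apart from it at low Slc17a7, and Ngfr shows wide scatter.

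Correlations with Slc17a7 were strongest for Bdnf, Gfra1 and Ntrk3. Over the 147 Drd1 libraries the Pearson r with Slc17a7 was 0.91 for Bdnf (Spearman rho 0.95), 0.70 for Gfra1 (rho 0.76), 0.40 for Ntrk2 (rho 0.41), 0.39 for Ntf3 (rho 0.43), 0.20 for Ngfr (rho 0.24), -0.38 for Gdnf (rho -0.46) and -0.55 for Ntrk3 (rho -0.59). Permutation p-values, adjusted over the 7 members, were 1.4e-05 to 2.33e-05 for Pearson's r of 6 members and 0.0134 for Ngfr, and 1.17e-05 to 0.00377 for Spearman's rho. The smallest value that the permutations can give is 1e-05 before adjustment. Without the 2 libraries farthest from the median of Slc17a7, r was 0.91 for Bdnf, 0.70 for Gfra1, 0.39 for Ntrk2, 0.39 for Ntf3, 0.22 for Ngfr, -0.40 for Gdnf and -0.58 for Ntrk3. An r at least as high as that of Bdnf was found for 26 of 15426 genes (0.169%), and one at least as high as that of Gfra1 for 1.96%. For Ntrk3, 1.52% of the genes had an r at least as low.

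By Pearson's r the relations of Bdnf, Gfra1 and Ntrk3 passed within each label format, and that of Ngfr passed in none. By Spearman's rho Bdnf and Ntrk3 passed in each, and Gfra1 did not in the 12 corrected E21 libraries (rho 0.66; adjusted permutation p = 0.0513). For Bdnf, r was 0.90 in numeric, 0.90 in E21 and 0.93 in corrected E21 libraries. For Gfra1 it was 0.68, 0.59 and 0.85, and for Ntrk3 it was -0.71, -0.51 and -0.77, in the same order of formats. For Gdnf it was -0.57 in numeric and -0.34 in E21 libraries, and in the 12 corrected E21 libraries it was -0.17 (adjusted permutation p = 0.579). Ntf3 had 0.35, 0.40 and 0.41, the last with an adjusted permutation p of 0.247, and Ntrk2 had 0.48, 0.26 and 0.66. In the corrected E21 libraries the rho of Ntrk2 was 0.20 (adjusted permutation p = 0.587) and did not pass. For Ngfr, r was 0.11, 0.17 and 0.020, with adjusted permutation p-values of 0.417, 0.132 and 0.972. In the 11 Th libraries no member passed: r with Slc17a7 lay between -0.51 (Gfra1) and -0.011 (Ngfr), and the lowest adjusted permutation p was 0.722 for r and 0.354 for rho.

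Fitted within formats by limma, the Bdnf slope was 0.60 in 56 numeric, 0.42 in 76 E21 and 0.49 in 12 corrected E21 libraries. Bdnf, Gfra1 and Ntrk3 were called in each format, whereas Ntrk2 did not pass in E21 libraries (slope 0.022; limma adjusted p = 0.0561) or in corrected E21 libraries (slope 0.049; limma adjusted p = 0.116). The slope was lower by 0.18 in E21 than in numeric libraries (difference -0.18, SE 0.045; limma adjusted p = 0.0155), in a fit that called 1.35% of all tested genes and 1.06% in this direction. With a pseudocount of 0.1 CPM this difference was -0.11 (limma adjusted p = 0.403) and was no longer called. E21 libraries had less Slc17a7, with a median of 89.1 CPM against 254 CPM in numeric libraries. For the other 5 members tested the difference in slope did not pass, with limma adjusted p-values between 0.233 (Gfra1) and 0.978 (Ngfr).

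**Figure D3:**
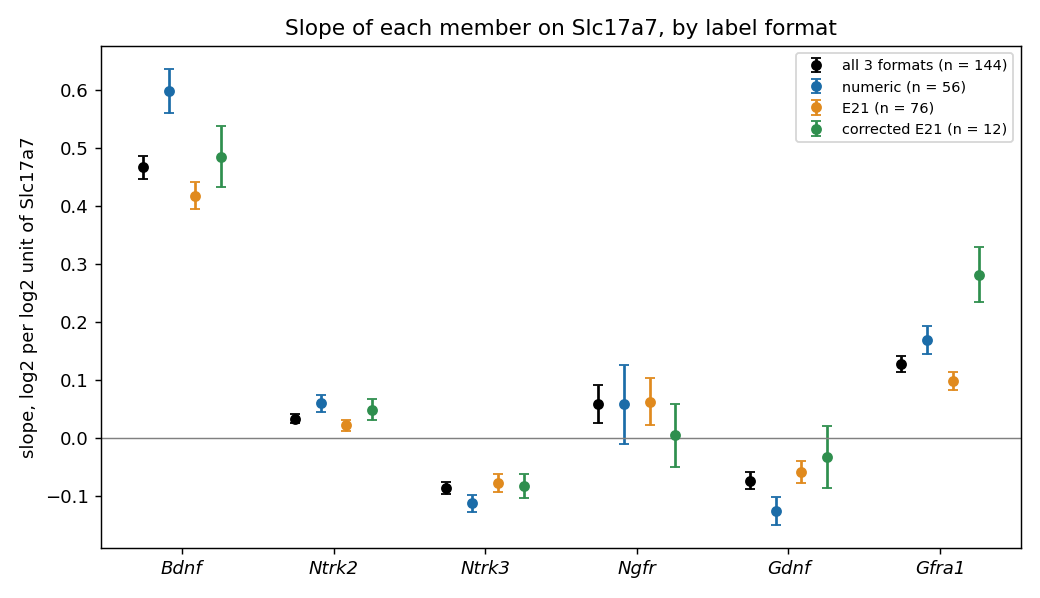
Slope of the 6 tested members on Slc17a7 (vertical axis, change in log2(CPM + 1) per log2 unit of Slc17a7), over the 3 formats together and in each format alone. Points are limma estimates, bars are 1 SE, and the line marks 0. Bdnf has the highest slope in every format, 0.42 to 0.60.

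The levels of 3 members also differed between label formats, as did Slc17a7, which was lower in E21 than in numeric libraries (log2 difference -1.39; limma adjusted p = 0.000167). In the Drd1 libraries Bdnf was 0.185 to 14.9 CPM with a median of 3.23 CPM in 56 numeric libraries, 0 to 14.9 CPM with a median of 1.32 CPM in 76 E21 libraries, and 0.247 to 9.52 CPM with a median of 5.17 CPM in 12 corrected E21 libraries. The ranges overlapped throughout. Bdnf was lower in E21 than in numeric libraries (log2 difference -0.72, SE 0.16; limma adjusted p = 0.000201), as were Gfra1 (-0.34, SE 0.063; limma adjusted p = 8.2e-06) and Ntrk2 (-0.091, SE 0.030; limma adjusted p = 0.0105). These are 3 of the 6 members tested, all lower, where 38.8% of all tested genes were called and 26.6% were lower. Ntrk3, Ngfr and Gdnf had differences of 0.034, -0.055 and -0.0041, and none passed. Over all genes 1878 were higher and 4109 lower, a split that became 2932 and 2888 with median-of-ratios scaling, under which Ntrk2 was not called (-0.059, limma adjusted p = 0.11). With a pseudocount of 0.1 CPM the difference of Bdnf was -1.25.

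Corrected E21 libraries had more Slc17a7 than E21 libraries (log2 difference 2.01; limma adjusted p = 0.00711), and more Bdnf and Gfra1. Bdnf was higher by 1.21 log2 units (SE 0.29; limma adjusted p = 0.00183) and by 1.89 with a pseudocount of 0.1 CPM. Gfra1, at 10.3 to 35.9 CPM with a median of 26.6 CPM against 10.0 to 37.7 CPM with a median of 15.9 CPM, was higher by 0.54 (SE 0.11; limma adjusted p = 0.000395). These were 2 of 6 members, where 12.6% of all tested genes were called and 9.41% were higher. Ngfr, at 5.66 to 11.6 CPM with a median of 9.55 CPM against 0.329 to 14.4 CPM with a median of 6.28 CPM, differed by 0.58 and did not pass (SE 0.22; limma adjusted p = 0.0631). Over all genes 1452 were higher and 496 lower, which became 1037 and 897 with median-of-ratios scaling. This comparison shares the E21 libraries with the one before it.

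With the Slc17a7 level as a covariate, only Gfra1 differed between formats among the members. It was lower in E21 than in numeric libraries by 0.16 (difference -0.16, SE 0.053; limma adjusted p = 0.00786) and higher in corrected E21 than in E21 libraries by 0.28 (SE 0.092; limma adjusted p = 0.0253). Of all tested genes, 45.5% (32.3% lower) and 17.9% (14.1% higher) were called in these fits. Bdnf then differed by -0.073 (SE 0.080; limma adjusted p = 0.471) and by 0.27 (SE 0.14; limma adjusted p = 0.149). Median library totals of the Drd1 libraries were 26.3 M in numeric, 22.0 M in E21 and 24.0 M in corrected E21 libraries. Gfra1 moved with the library total (r 0.27), which was a covariate in no comparison of formats, so its part was not tested. Label format and any batch that coincides with it cannot be told apart.

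The members fell into sets that moved together across the 147 Drd1 libraries. Bdnf and Gfra1 rose together (r 0.74, rho 0.75), and so did Ntrk3 and Gdnf (r 0.66, rho 0.66) and Ntrk2 and Gfra1 (r 0.58, rho 0.59). Bdnf and Ntrk3 moved in opposite directions (r -0.57, rho -0.58), as did Bdnf and Gdnf (r -0.45, rho -0.46). Each of these 5 pairs had a permutation p of 1e-05 for both measures, the smallest that the permutations can give, and 2.33e-05 or less after adjustment over 21 pairs. In all, 15 of the 21 pairs passed by Pearson's r, and 52.4% of all pairs of tested genes had an r at least as far from 0 as the lowest that passed (0.19). Without the 2 libraries farthest from the median of the first gene, the 5 values of r were 0.76, 0.66, 0.59, -0.56 and -0.45, in the order given.

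Within each of the 3 formats these pairs kept their sign. The r of Bdnf and Gfra1 was 0.79 in numeric, 0.59 in E21 and 0.82 in corrected E21 libraries. That of Ntrk3 and Gdnf was 0.65, 0.72 and 0.43, and that of Ntrk2 and Gfra1 was 0.59, 0.52 and 0.67. In the 12 corrected E21 libraries Ntrk3 with Gdnf (rho 0.32; adjusted permutation p = 0.378 for r) and Ntrk2 with Gfra1 (rho 0.23; adjusted permutation p = 0.0933 for r and 0.821 for rho) did not pass. Bdnf with Gdnf did not pass there either (r -0.30, rho -0.44; adjusted permutation p = 0.604 and 0.540). Bdnf with Gfra1 passed there for r (adjusted permutation p = 0.00798) and not for rho (0.70; adjusted permutation p = 0.0995). After a linear fit on Slc17a7 was taken out of both genes, 5 of the 21 pairs passed by Pearson's r. The share of all gene pairs that reach such values after this fit was not computed, so the count has no background beside it. The pair of Ntrk3 and Gdnf kept most of its size (r 0.59, rho 0.56), followed by Ntrk2 and Gfra1 (r 0.45, rho 0.41) and Bdnf and Gfra1 (r 0.36, rho 0.40), with adjusted permutation p-values of 0.000105 to 0.00021. Bdnf with Gdnf had r -0.26 (rho -0.27; adjusted permutation p = 0.0064 and 0.00446). Bdnf with Ntf3 had r 0.21 (rho 0.19), which passed for r (adjusted permutation p = 0.0405) and not for rho (0.0664). Bdnf with Ntrk3 had r -0.19 (adjusted permutation p = 0.0597), which did not pass, and rho -0.21, which did (adjusted permutation p = 0.0419). Ngfr with Gfra1 also passed for rho alone (0.22; adjusted permutation p = 0.0301).

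The markers of cell types moved with the members in different ways. A list score, the mean of its genes' standardised log2 values, was computed for 14 marker lists, and 57 of the 98 pairs of a member and a list passed (permutation p adjusted over the 98 pairs). Over all tested genes and the same lists, 45.0% of pairs had an r at least as far from 0 as the lowest that passed (0.19). Bdnf had its highest r with the 8 cortical projection neuron markers (r 0.93, rho 0.94), which summed to 23.6 to 1535 CPM in these libraries. Gfra1 had r 0.74 with the same list (rho 0.76). This list includes Slc17a7 itself, so its r with both genes partly repeats their relation with Slc17a7. Ntrk2, which astrocytes are known to express in a form without the kinase, had r 0.63 with astrocyte (rho 0.55), 0.60 with mural cell (rho 0.53) and 0.56 with endothelial markers (rho 0.45). Ntrk3 and Gdnf each had r 0.69 with the 6 cholinergic neuron markers (rho 0.69 and 0.66), which summed to 41.5 to 132 CPM. Ntrk3 had r -0.66 with microglial markers (rho -0.63) and 0.61 with medium spiny neuron markers (rho 0.62). For r, all pairs named so far had an adjusted permutation p of 3.92e-05, the smallest reached after adjustment. Without the 2 libraries farthest from the median score, these r were 0.93 (Bdnf) and 0.73 (Gfra1) with cortical markers, 0.60, 0.56 and 0.53 for Ntrk2 in the order given, 0.68 and 0.67 for Ntrk3 and Gdnf with cholinergic markers, and -0.64 and 0.60 for Ntrk3 with microglial and medium spiny neuron markers.

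Of the pairs just named, 4 are given within formats, and the others are not reported here by format. In numeric, E21 and corrected E21 libraries, Bdnf with cortical markers had r of 0.92, 0.93 and 0.95. Ntrk2 with astrocyte markers had 0.77, 0.55 and 0.62 in the same order. Gdnf with cholinergic markers had 0.78, 0.65 and 0.47, and Ntrk3 with microglial markers had -0.48, -0.77 and -0.20. Of these 4 pairs, Bdnf with cortical markers alone passed in the 12 corrected E21 libraries, where the other 3 had adjusted permutation p-values of r between 0.300 and 0.925. Bdnf, an activity-regulated gene in cortical neurons, had r 0.15 with the 8 immediate early genes (rho 0.15; adjusted permutation p = 0.102), which did not pass. The part that any of these cell types had in the members' levels was not tested.

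**Figure D4:**
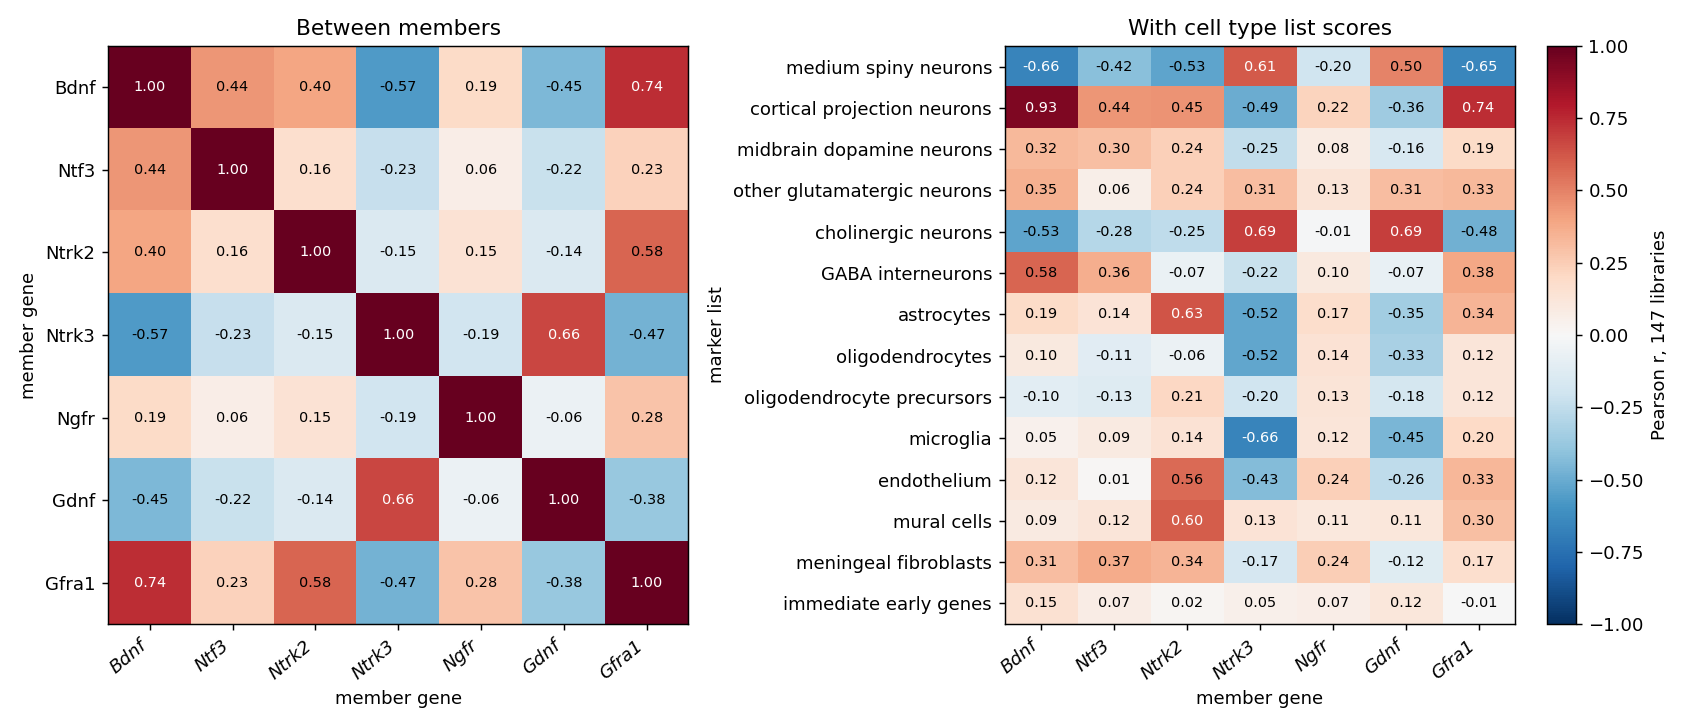
Pearson r over the 147 Drd1 libraries between the members (left) and between each member (columns) and the score of each marker list (rows, right), with red for positive and blue for negative values. Ntrk3 and Gdnf share a column pattern that is opposite in sign to that of Bdnf and Gfra1 for cortical, cholinergic and medium spiny neuron markers.

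Other genes of the pathway were counted in the same limma fit on Slc17a7, where the median slope of all tested genes was -0.0043 and 52.4% of them were called (21.4% higher and 31.0% lower). Of the 8 other ligands and trophic factors 4 were tested, with 3 higher and 1 lower. Among them, Nrtn (0.080) and Manf (0.027) rose with Slc17a7 while Pspn fell (-0.028). Of the 14 other receptors and co-receptors 12 were tested, with 4 higher and 5 lower and a median slope of -0.017, on a background of 21.4% higher and 31.0% lower. Rtn4r, a Nogo receptor that can pair with the protein of Ngfr, rose by 0.57 and Lingo1, a partner in that complex, by 0.17 (limma adjusted p = 2.87e-60 and 1.27e-29). Gfra2 rose by 0.093, and Sorcs1, a sorting receptor of the sortilin family, fell by 0.077 (limma adjusted p = 7.29e-13 and 8.34e-10). Ret did not pass (slope 0.013).

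Among 11 genes of precursor processing and secretion, all tested, 5 were higher and 1 lower, with a median slope of 0.021. Cadps2, which promotes the release of dense-core vesicles, rose by 0.33 (limma adjusted p = 4.06e-47), Pcsk5, a proprotein convertase, by 0.071 and Cpe, a carboxypeptidase of the secretory route, by 0.047. Scg2, a granin of dense-core vesicles, fell by 0.050. Among 24 adaptors and signalling genes, all tested, 3 were higher and 10 lower, with a median of -0.016, so the share called was near the 52.4% of all tested genes. Dok5, a docking adaptor, rose by 0.14, and Crtc1 and Maged1 fell by 0.054 and 0.039. Crtc1 encodes a co-activator of CREB and Maged1 a protein that binds the shared neurotrophin receptor.

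For each member the 3 most similar genes over the 147 Drd1 libraries were taken by Pearson r of log2 values, among 13925 tested genes with a named symbol, as a description. Bdnf was most like Rtn4r (r 0.95), Rtn4rl2 (0.95) and Nrn1 (0.94), and after the linear fit on Slc17a7 like Rtn4r (0.69), Rtn4rl2 (0.67) and Syt17 (0.65). Ntf3 was most like Npr3 (0.62), C1ql3 (0.61) and Fezf2 (0.59), the last a transcription factor of deep-layer cortical neurons. Ntrk2 was most like Slc1a2 (0.80), the astrocytic glutamate transporter, and like Mindy2 (0.80) and Marf1 (0.78). Ntrk3 was most like Zfp483 (0.93), Fstl4 (0.90) and Epha4 (0.89). Gdnf was most like Sall2 (0.72), Htr4 (0.71) and Dclk3 (0.69), and after the fit Chat, the enzyme of acetylcholine synthesis, joined the 3 (0.63). Gfra1 was most like Iqsec3 (0.87), Rgs12 (0.84) and Gng2 (0.83). The genes in these sets share libraries and their cell content, and the values carry no test.

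For Ngfr the most similar genes with a named symbol reached only 0.36 (Mycbpap), 0.35 (Lum) and 0.35 (Samd14). Mycbpap and Samd14 are neighbours of Ngfr on chromosome 10, with start positions 1062 kb and 576 kb away. Among all 15426 other tested genes, locus-numbered ones included, the 2 most similar were LOC120095179 (r 0.56), 116 kb away, and LOC120095180 (r 0.46), 312 kb away. These loci, singled out after their values were seen, were at 1.08 to 9.33 CPM with a median of 4.03 CPM and at 0.624 to 6.39 CPM with a median of 2.53 CPM. Of the 10 genes most similar to Ngfr, 5 were among the 65 tested genes within 2 Mb of its start. For each of the other 6 members none of the 10 most similar genes lay within 2 Mb, where 6 (Bdnf) to 62 (Ntf3) tested genes were found. The r of LOC120095179 with Ngfr was 0.57 in numeric, 0.52 in E21 and 0.54 in corrected E21 libraries, and that of Mycbpap was 0.36, 0.41 and -0.16.

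**Figure D5:**
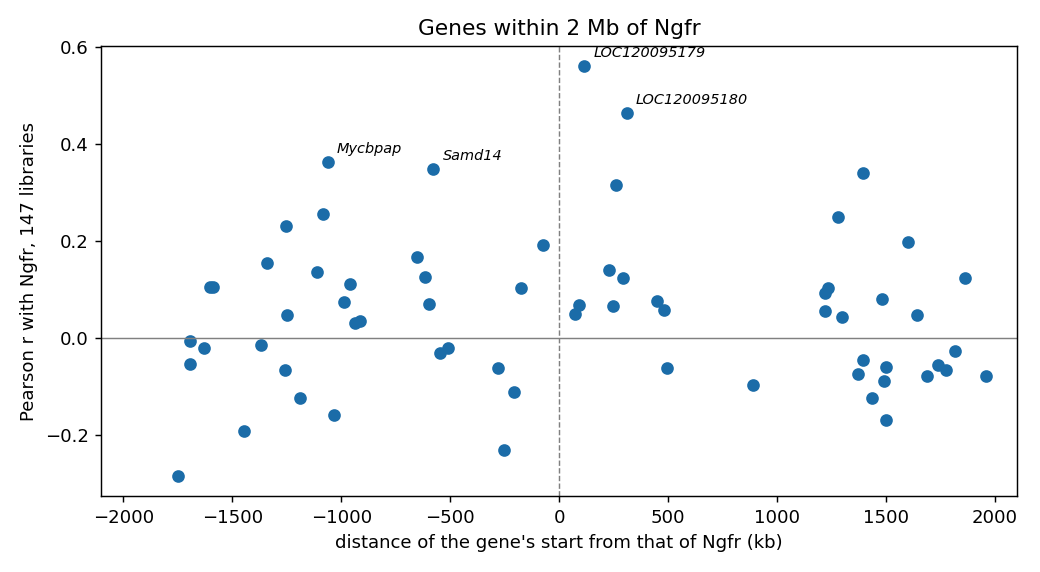
Pearson r with Ngfr over the 147 Drd1 libraries (vertical axis) for the 65 tested genes within 2 Mb, by the distance of their start from that of Ngfr (horizontal axis, kb), with 4 genes named. LOC120095179 has the highest value, 0.56, and the values range down to -0.28.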

How the data were processed

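Per the submitters' processing notes, kallisto 0.48 was used. Genome build, annotation and strand: not given in the sources used here. Each deposited value is a log2 of 1 plus an estimated count of a gene, which was read from the values, as the file header names no unit. They were turned back to estimated counts and scaled to 1000000 per library (CPM). Of 38354 gene symbols, 38278 matched RefSeq (GRCr8), all with a start position at an end of the RefSeq gene. Totals were 14.6 to 61.2 M estimated counts (M for 1000000), so 1 CPM was 14.6 estimated counts in the shallowest and 61.2 in the deepest library.

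Tests used limma 3.58.1 in R 4.3.3 (two-sided moderated test with intensity trend on log2(CPM + 1), genes averaging at least 1 CPM over all 159 libraries, Benjamini-Hochberg adjustment over 15426 or 15427 genes, threshold 0.05) and were run on simulated data as a check. The simulated slopes were larger than those of every member but Bdnf, so the check does not bear on slopes as small as theirs. The slope fit had label format as covariate. Comparisons of formats took 144 Drd1 libraries of 3 formats under 1 estimate of spread; the 2 AA1 libraries and the 1 of another corrected format were in no limma fit. Correlations had two-sided p-values from 100000 permutations (numpy 2.4.6 in Python 3.11.15). Alternatives were median-of-ratios scaling, quantile normalization, a pseudocount of 0.1 CPM, no filter, other covariates and subsets of libraries.

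The text names the 7 members, the genes of the rule, up to 4 genes per pathway list with the smallest p in the slope fit, up to 3 genes per marker list and the 3 genes most like each member; some genes that the rule takes were left out and are not reported here. Members, lists and rules were chosen with earlier results of these data known.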

Additional observations from a re-analysis of the deposited data

Results flagged for a closer look

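The slope of Bdnf on Slc17a7 differed between label formats by the interaction term of the limma fit: the difference of E21 from numeric libraries was -0.18 (SE 0.045; limma adjusted p = 0.0155), with slopes of 0.42 and 0.60 in the formats alone. Over the alternatives run on the same libraries the adjusted p of limma lay between 0.0155 and 0.403, the highest with a pseudocount of 0.1 CPM.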

How the results depend on the processing

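Of the summary counts, 52 kept within 1.5 times their main value and 11 did not. All 5 members called in the slope fit were also called with median-of-ratios scaling, quantile normalization, a pseudocount of 0.1 CPM, other cortical markers in place of Slc17a7, and with the library total as a covariate, which was added after the data were seen because Ntrk2 and Gfra1 moved with it (r 0.27 each, rho 0.15 and 0.28; adjusted permutation p of r 0.00399). Corrected E21 libraries alone called 3 members, and the genes called of all tested were 1278 there and 4465 in numeric libraries alone, both with fewer samples.

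With all libraries of the 3 formats, Th libraries included, the slopes of Ngfr, Gdnf and Gfra1 turned to -0.032, 0.051 and -0.085. The differences of slope turned to 0.39 for Bdnf, 0.028 for Ntrk2, -0.041 for Ntrk3, -0.18 for Gdnf and 0.32 for Gfra1, with 4 members and 9465 genes called against 1 and 209. Corrected E21 against E21 then called 1 member and 765 genes, and Gdnf turned to 0.23 in E21 against numeric libraries. The fit's Th libraries are 10 numeric and 1 E21.

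A pseudocount of 0.1 CPM left 0 members with a difference of slope, and Ngfr turned to -0.0027. In E21 against numeric libraries Gdnf turned to 0.019 with median-of-ratios scaling and to 0.051 with quantile normalization. With Slc17a7 as covariate 1 member was called in each comparison of formats. Ntrk3 and Ngfr turned to -0.087 and 0.025 in the first, and Ntrk3 and Gdnf to 0.099 and 0.033 in the second. After the linear fit on Slc17a7, 5 pairs of members passed, and the share over all gene pairs was not computed. In that setting r turned to -0.018 for Ntf3 and Ngfr, -0.070 for Ntf3 and Gfra1, 0.10 for Ntrk2 and Ntrk3, 0.015 for Ntrk2 and Gdnf and 0.024 for Ngfr and Gdnf. The cause was not tested. No paired analysis was possible because the labels give no replicate numbers and each library is a different rat. Ntf3, with a median of 4 estimated counts, is limited by depth.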
